A study of Mus musculus with 4 samples.

Results

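The genes described here are 45 matrix proteases and inhibitors of them: 18 matrix metalloproteinases (MMPs), 4 tissue inhibitors of metalloproteinases (TIMPs), 8 ADAM and 12 ADAMTS metalloproteases, and 3 genes of the plasminogen system. They were chosen by name, and a gene counted as measured where the annotation of the array gave at least 1 probe set to that gene alone. That was so for 39 of the 45 genes, out of 18193 genes measured in this way. Mean intensity lay above the filter for 25 of the 39 (log2 6.58, an intensity of 95.5), and these were tested among 10916 genes. The 14 below it are given as values. Mmp15, Mmp27, Mmp28, Adamts2, Adamts17 and Serpine2 had no probe set of their own and were not analysed here.

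The arrays held whole dorsal skin of male C57B6 mice in adult telogen, when hair follicles rest, with 2 arrays from a middle time (postnatal day 54, P54) and 2 from a late one (P59). Both groups shared strain and sex, and no other allele, treatment or agent is named for either. The skin was shaved and taken after death into RNA Later. The arrays are labelled as biological replicates, with no word on which animals or how many made up each, so p-values measure only the spread between these samples, which may be technical. In whole skin, fewer cells of a type and less RNA per cell cannot be told apart.

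Matrix metalloproteinases cut collagens, laminins, elastin and other matrix proteins, and are made as inactive precursors that other proteases activate. TIMPs bind the active site of MMPs, and Timp3 also blocks several ADAM and ADAMTS enzymes. ADAMs are membrane proteins, many of which shed the outer part of other membrane proteins, ADAMTSs are secreted enzymes that cut proteoglycans and procollagens, and the plasminogen activators make plasmin, which cuts fibrin and activates some MMPs. In skin these enzymes come from fibroblasts, keratinocytes and immune cells, and matrix around the follicle is remodelled as it moves through its cycle.

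The array of P59 replicate 2 stood apart in a measure of RNA quality. The control probe set at the 3' end of Gapdh exceeded the one at its 5' end by 4.57 (log2 difference) there, against 0.20 to 0.34 on the other 3 arrays, and for Actb the gap was 1.64 against 0.18 to 0.52. Of the 17408 probe sets of a single gene above the filter, 3.80% were at least 2-fold lower in P59 replicate 2 than on each other array, against 0.00574% to 0.218% for the other arrays. Spearman correlations between arrays over all probe sets ran from 0.959 to 0.990. Of the markers that define the tissue, the basal keratin gene Krt14 lay between 12.91 and 13.38 and the collagen gene Col1a1 between 14.46 and 14.52 (log2 intensity) on the 4 arrays.

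The question was which matrix proteases and inhibitors differ between middle and late telogen. No gene of the 25 passed the adjusted threshold of 0.05 in limma, where 0.0183% of all genes tested did, and 6 had an unadjusted p under 0.05. Of the 25, 21 had a higher mean at P59 and 4 a lower one, and over all genes tested 6376 of 10916 were higher. At an unadjusted p under 0.05 with at least a 1.5-fold difference, a count that controls no false discovery rate, 5 genes were higher at P59 (Mmp3, Mmp23, Adam12, Adam19 and Adamts5), where 3.03% of all genes tested met these limits. Under the same limits 1 gene was lower (Adamts10), against a background of 2.53%. The groups did not overlap for 14 genes, all with both P59 arrays above both P54 arrays, where 18.9% of all genes tested were ordered so. The opposite order held for 0 of the 25 and for 14.8% of all genes tested. These counts take only the probe set used for each gene. The opposite order did occur in other sets of Mmp9, Timp3, Adam10 and Adamts9.

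The median log2 difference, P59 minus P54, was 0.19 over the 25 genes (range -1.18 to 1.12) and 0.05 over all genes tested. Leaving out 1 array at a time, it lay between 0.20 and 0.31 for the 25 genes and between -0.03 and 0.13 for all genes. With the mean of all probe sets of a gene it was 0.11 for the protease genes. P59 replicate 2 held the highest of the 4 values for 16 of the 25 genes, or 64.0%, and for 46.4% of all genes tested. Without P59 replicate 2 the count of 5 higher genes became 2 (Adam12 and Adamts5) and that of lower genes 0. Without P54 replicate 2 the higher count was 1 (Adamts5). Without P54 replicate 1 Adam19 and Adamts5 stayed among the higher genes with Mmp11 and Plat added, and without P59 replicate 1 Adam12 left and Adam33 was added. A call lost in this way is not always a smaller difference, since the spread then comes from the other group alone and p can rise or fall with it. Without P54 replicate 2 Mmp3 differed by 0.78 and Adam12 by 0.67, and without P54 replicate 1 Mmp23 differed by 0.80. The part of RNA quality in these counts was not tested.

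**Figure D1:**
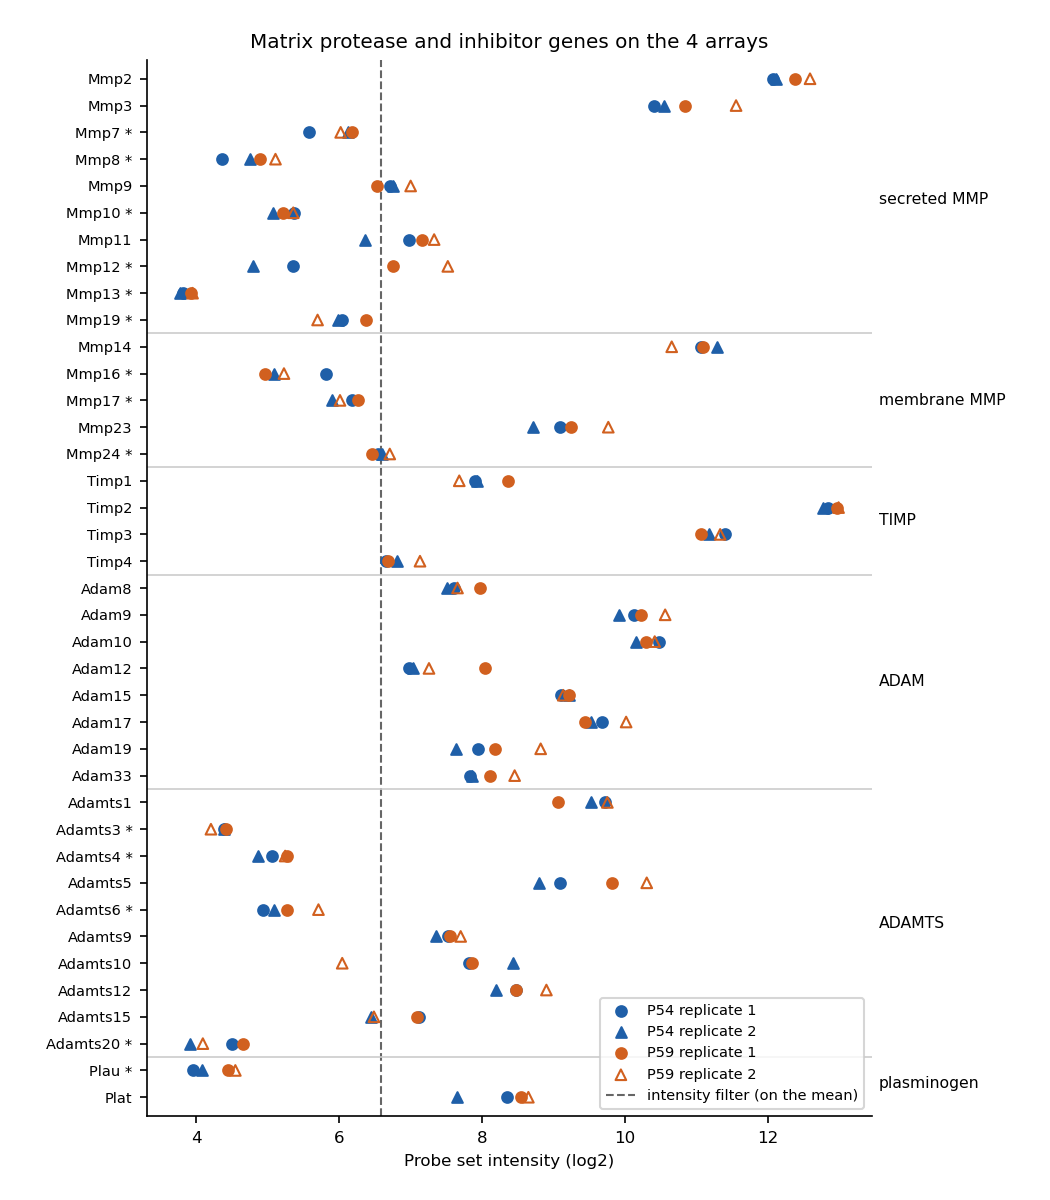
Log2 probe set intensity (horizontal axis) of the 39 measured genes on the 4 arrays, 1 row per gene in order of role, with P54 in blue and P59 in orange; an asterisk marks genes whose mean lay below the intensity filter (dashed line, 6.58). Both P59 points lie to the right of both P54 points for Mmp3, Mmp12, Mmp23, Adam12, Adam19 and Adamts5, while Adamts10 has 1 low point, at 6.04 in P59 replicate 2.

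The secreted MMPs hold the gelatinases, the stromelysins, the collagenases and the macrophage elastase. Of 12 such genes 10 were measured and 4 tested. All 4 tested genes had a higher mean at P59, with a median difference of 0.48. At the unadjusted limits 1 was called, where 3.03% of all genes tested were called higher. Below the filter, all 6 genes also had a higher mean at P59, and for 3 of them (Mmp8, Mmp12 and Mmp13) the groups did not overlap. Of all 7277 genes below the filter 68.2% had a higher mean at P59, and 30.0% had both P59 arrays above both P54 arrays.

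Mmp12 encodes macrophage metalloelastase, which cuts elastin, and had the largest difference of the 39 measured genes. Its single probe set read a log2 intensity of 5.35 and 4.80 at P54 and of 6.75 and 7.52 at P59. Both P59 arrays were above the filter and both P54 arrays below it, with the lowest P59 value well above the highest P54 value. The means were 5.07 ± 0.39 and 7.14 ± 0.54 (SD, n = 2 per group), a 4.17-fold difference (2.06 on the log2 scale) that is rough because the P54 mean lay below the filter. Since its overall mean was below the filter, Mmp12 was outside the main test. In limma without the filter it had an unadjusted p of 0.000353 and an adjusted p of 0.384 (SE 0.31, 95% interval 1.32 to 2.80). Without the filter 5 of the 39 genes were higher at the unadjusted limits (Mmp3, Mmp12, Mmp23, Adam19 and Adamts5), against 2.73% of 18193 genes. Leaving out 1 array at a time, without the filter, the Mmp12 difference ranged from 1.68 without P59 replicate 2 to 2.45 without P59 replicate 1. Its adjusted p in limma ranged from 0.0311, without P59 replicate 1, to 0.99996, without P54 replicate 2.

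Mmp3 encodes stromelysin 1, which cuts proteoglycans, laminin and several collagens and activates other MMPs. It read 10.41 and 10.54 at P54 and 10.83 and 11.55 at P59. The P59 arrays were both higher, and P59 replicate 2 was the highest by 0.72. The means were 10.48 ± 0.10 and 11.19 ± 0.51 (SD, n = 2 per group), a 1.64-fold difference. In limma the log2 difference was 0.72 (SE 0.27, 95% interval 0.11 to 1.33, adjusted p = 0.656), and it was 0.36 without P59 replicate 2.

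Mmp3, Mmp10 and Mmp12 lie in 1 cluster of MMP genes on mouse chromosome 9. Its order in the RefSeq annotation of GRCm38.p6 is Mmp13, Mmp12, Mmp1b, Mmp3, Mmp1a, Mmp10, Mmp8, Mmp27, Mmp20, Mmp7. All 10 protein-coding genes annotated in that span are MMPs, and 7 of them are among the 45 genes. Proximal promoters of this cluster are known for sites of AP-1, the Fos and Jun dimer. The RefSeq windows from 250 bases before to 50 after each start were therefore searched on both strands for TGANTCA, a form of the AP-1 recognition letters that reads the same on both strands apart from its middle base. Windows were at hand for 30 of the 45 genes. The genes without one, among them Adamts5, Adam12, Mmp2, Mmp9 and Plat, were not searched. The letters were in a window of 6 of the 30: Mmp13, Mmp12, Mmp3, Mmp10 and Mmp7 of the cluster and Adam19. For Mmp12, Mmp7 and Adam19 they were in the window of 1 of several annotated starts. They were not in the windows of Mmp8 and Mmp27. Counted by window, 6 of the 35 windows of these 30 genes held them, against 7.81% of all 32851 windows. The 5 cluster sequences are printed to show where these letters lie in each. Each line gives the 120 bases before the start on the plus strand, 5' to 3', in GRCm38.p6, at chr9:7272394-7272513 (Mmp13), chr9:7347254-7347373 (Mmp12), chr9:7445702-7445821 (Mmp3), chr9:7502222-7502341 (Mmp10) and chr9:7691970-7692089 (Mmp7), with the TGANTCA match in capitals.
Mmp13: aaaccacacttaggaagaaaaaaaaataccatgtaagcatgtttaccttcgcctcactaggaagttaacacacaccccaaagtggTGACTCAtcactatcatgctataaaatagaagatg
Mmp12: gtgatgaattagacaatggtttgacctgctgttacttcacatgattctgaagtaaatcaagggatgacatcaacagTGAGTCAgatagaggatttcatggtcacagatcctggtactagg
Mmp3: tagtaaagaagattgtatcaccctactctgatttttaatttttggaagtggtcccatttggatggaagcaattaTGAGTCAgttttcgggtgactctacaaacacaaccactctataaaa
Mmp10: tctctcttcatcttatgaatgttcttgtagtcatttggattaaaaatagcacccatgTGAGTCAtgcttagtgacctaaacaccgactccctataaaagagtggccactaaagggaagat
Mmp7: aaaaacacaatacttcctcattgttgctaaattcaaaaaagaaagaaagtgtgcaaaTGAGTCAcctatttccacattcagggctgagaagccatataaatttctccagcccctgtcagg
The first base of the match lay 35 bases before the start in Mmp13, 44 in Mmp12, 46 in Mmp3 and 63 in both Mmp10 and Mmp7. A match describes the letters of the window and is not a measured binding site.

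Of the 5 cluster genes with the match, Mmp12 and Mmp3 had the values given above, and the other 3 lay below the filter. Mmp13, the main interstitial collagenase of the mouse, read 3.82 and 3.77 at P54 and 3.92 and 3.95 at P59, a difference of 0.14. Mmp10, stromelysin 2, differed by 0.06 with overlapping groups, and Mmp7, matrilysin, by 0.25 with overlapping groups. Mmp8, the neutrophil collagenase, whose window lacked the letters, read 4.35 and 4.75 at P54 and 4.89 and 5.11 at P59, also below the filter. Of 9 tested genes on a list of AP-1 and Ets factors 0 were higher and 3 lower at the unadjusted limits: Junb by -1.01, Jun by -0.67 and Fos by -1.37 (log2 difference, adjusted p of 0.575, 0.723 and 0.726 in limma), where 2.53% of all genes tested were lower. Fos read 12.19 in P54 replicate 1, and 9.85, 9.64 and 9.65 on the other 3 arrays, so its group difference rests on 1 array. Without P54 replicate 1 Fos differed by -0.20 and Jun by -0.31, and without P59 replicate 2 Junb differed by -0.46.

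The gelatinases were not called. Mmp2, gelatinase A, which cuts denatured collagen and collagen IV, read 12.07 and 12.11 at P54 and 12.38 and 12.59 at P59. Its groups did not overlap, and its second probe set differed by 0.34 beside 0.39 for the set used (limma adjusted p = 0.870). Mmp9, gelatinase B, read 6.72, 6.76, 6.53 and 7.0, just above the filter, and differed by 0.03, while its other set differed by -0.80. Mmp11, stromelysin 3, a stromal enzyme, read 6.98 and 6.36 at P54 and 7.15 and 7.33 at P59. That difference of 0.57 had an adjusted limma p of 0.782, and the groups did not overlap. Mmp11 met the unadjusted limits after repeated quantile normalization (0.63) and without P54 replicate 1 (0.88), and differed by 0.26 without P54 replicate 2. Mmp19 differed by 0.03 below the filter.

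**Figure D2:**
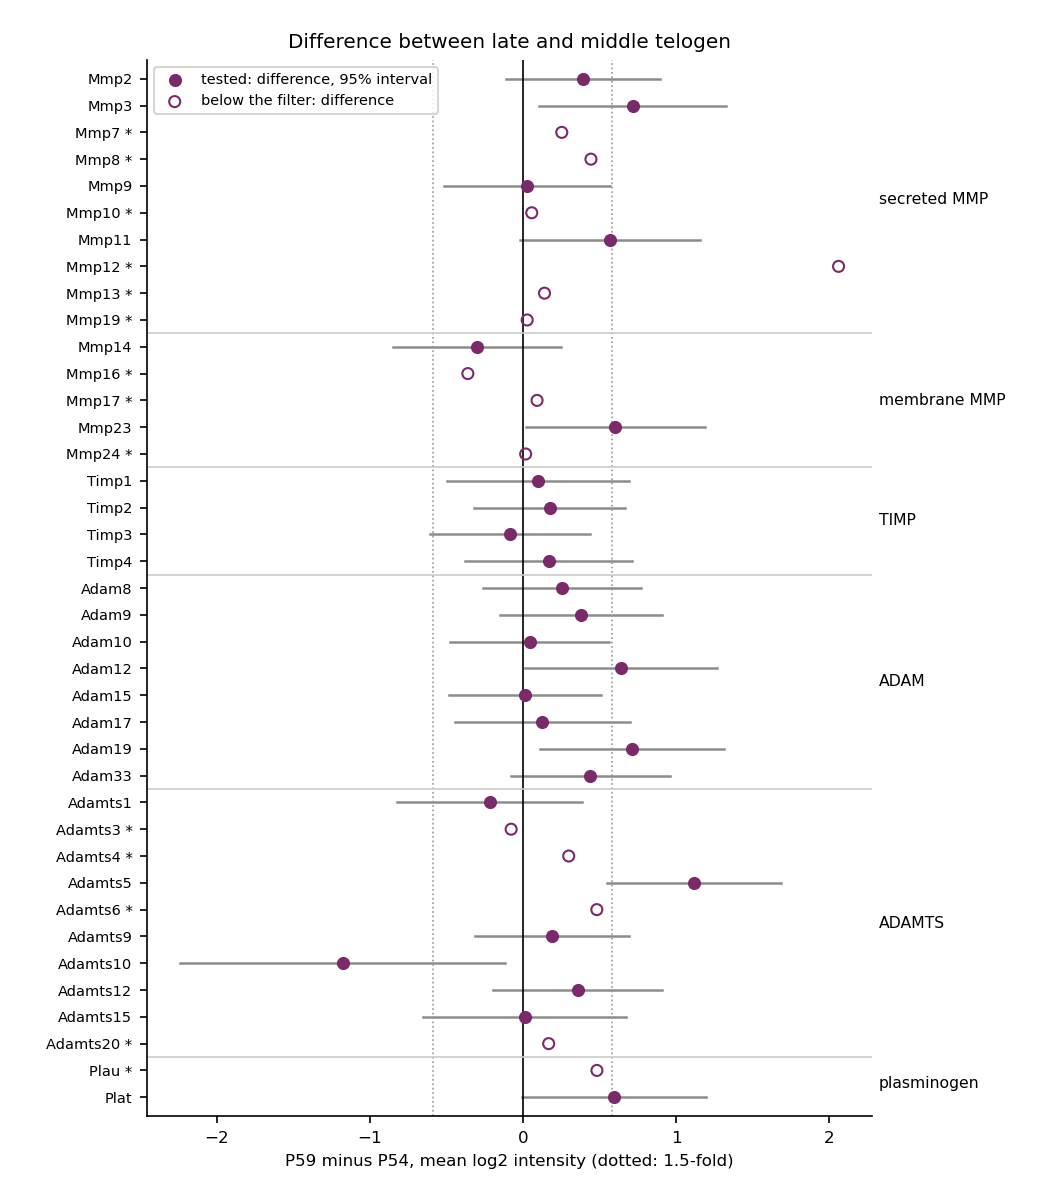
Difference of mean log2 intensity, P59 minus P54, for the 39 measured genes, with limma's 95% interval (bars) for the 25 tested genes and open points without an interval for the 14 below the filter (asterisk). Dotted lines mark 1.5-fold; the intervals of Mmp3, Mmp23, Adam12, Adam19 and Adamts5 lie above 0, that of Adamts10 lies below 0, and the other 19 cross it.

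Membrane-bound MMPs act at the cell surface. Of 6 such genes 5 were measured and 2 tested, 1 higher and 1 lower in mean. Mmp23, a type II membrane enzyme that is released by furin cleavage, read 9.09 and 8.71 at P54 and 9.25 and 9.76 at P59. Its groups did not overlap, though P59 replicate 1 lay close above P54 replicate 1. The means were 8.90 ± 0.27 and 9.50 ± 0.37 (SD, n = 2 per group), a 1.52-fold difference. In limma the log2 difference was 0.60 (SE 0.26, 95% interval 0.02 to 1.19, adjusted p = 0.762), and it was 0.35 without P59 replicate 2. The second set differed by 0.41 with overlapping groups, and by 0.03 without P59 replicate 2. With the mean of both sets the difference was 0.51 and Mmp23 was not called. Mmp14, which activates Mmp2 and cuts fibrillar collagen, read 11.06 and 11.28 at P54 and 11.09 and 10.65 at P59, a difference of -0.30 (limma adjusted p = 0.934) with overlapping groups. A second Mmp14 set read 9.03, 9.48 and 9.20 on the first 3 arrays and 5.85 in P59 replicate 2. Below the filter, Mmp16 differed by -0.36, Mmp17 by 0.09 and Mmp24 by 0.02 in the sets used, all with overlapping groups. All 4 Mmp16 sets had a lower mean at P59. Those not used, also below the filter, differed by -0.17, -0.33 and -0.29, each with both P59 arrays below both P54 arrays. Mmp24 lay just under the filter, with values between 6.46 and 6.71.

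The 4 TIMP genes were all tested, and none was called at either threshold. Timp2, which binds Mmp2 and helps activate it at the surface with Mmp14, read 12.83 and 12.76 at P54 and 12.96 and 12.98 at P59. The P59 arrays were higher by a narrow margin, with a log2 difference of 0.17 (95% interval -0.32 to 0.67, limma adjusted p = 0.954). Timp1, an inhibitor induced by growth factors and inflammation, read 7.90 and 7.93 at P54 and 8.35 and 7.68 at P59. The P59 arrays fell on both sides of P54, and the difference was 0.10 (-0.49 to 0.69, limma adjusted p = 0.984). Timp3, which stays bound to the matrix, read 11.40 and 11.17 at P54 and 11.07 and 11.33 at P59. These values overlap, and the difference was -0.08 (-0.61 to 0.44, limma adjusted p = 0.984). Timp4 read 6.66 and 6.81 at P54 and 6.68 and 7.13 at P59. The difference was 0.17 (-0.38 to 0.71, limma adjusted p = 0.964) with overlapping groups. All 4 intervals hold 0, and none is narrow enough to show that the levels are alike.

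Other probe sets of the TIMP genes gave other values, in part through P59 replicate 2. Of 6 Timp2 sets, 1 read 8.96, 9.96 and 9.05 on the first 3 arrays and 4.80 in P59 replicate 2, and the differences of the 6 sets ran from -2.54 to 0.20. For Timp3 the 3 other sets differed by -0.79, -0.81 and -0.91, and were lowest in P59 replicate 2. Without that array 2 of the Timp2 sets still differed by -0.41 and -0.24, against 0.16 for the set used, and the 3 other Timp3 sets by -0.51, -0.12 and 0.01, against -0.22. The second Timp4 set differed by 0.05 and was lowest in P59 replicate 1, at 6.09. Of the 82 probe sets of the 39 genes, 11 (13.4%) were at least 2-fold lower in P59 replicate 2 than on each other array, and 0 were so on any of the other 3 arrays. Above the filter it was 9 of 46 sets, where 3.80% of all single-gene sets were. The 11 sets belong to Timp2, Timp3, Mmp14, Mmp19, Adam10, Adam15, Adam17 and Adamts10, and only that of Adamts10 is the set used for its gene. The set used was picked by its mean over the 4 arrays, which makes a set that reads low on 1 array less likely to be picked. The sets used are thus not shown to be free of the low readings. Of 18 tested genes with several sets, 7 had sets that differed in sign.

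**Figure D3:**
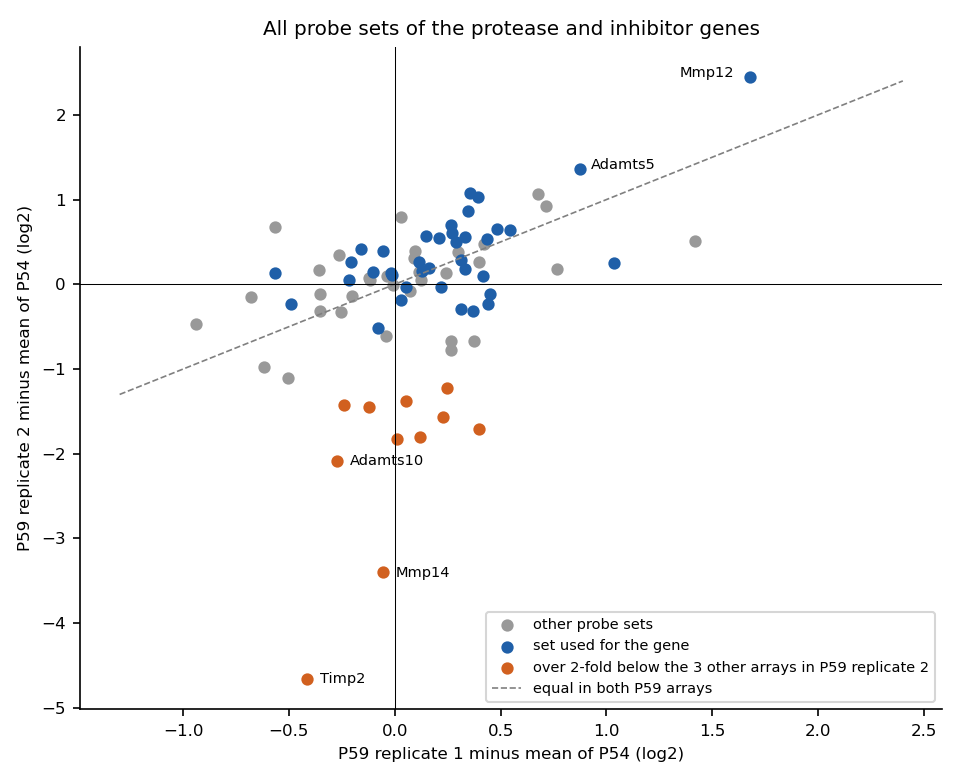
Each point is 1 of the 82 probe sets of the 39 genes, plotted as its difference from the P54 mean in P59 replicate 1 (horizontal axis) and in P59 replicate 2 (vertical axis), both in log2; the dashed line marks equal differences. Orange points are the 11 sets at least 2-fold lower in P59 replicate 2 than on each other array, of which Adamts10 is the set used, and the lowest belongs to Timp2.

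All 8 ADAM genes were tested, and in the sets used all 8 had a higher mean at P59, by 0.01 to 0.71 (median 0.32). Adam10 and Adam15 each had 1 set higher and 3 lower at P59, and Adam17 had 1 higher and 2 lower. Without P59 replicate 2 the sets used differed by -0.01 for Adam10, 0.05 for Adam15 and -0.16 for Adam17. For 5 of the 8 genes the groups did not overlap, where 18.9% of all genes tested had both P59 arrays above both P54 arrays. At the unadjusted limits 2 were called, where 3.03% of all genes tested were called higher. Adam19, which sheds neuregulin precursors, read 7.95 and 7.63 at P54 and 8.18 and 8.82 at P59. The P59 arrays were the higher, P59 replicate 2 by more. The means were 7.79 ± 0.22 and 8.50 ± 0.45 (SD, n = 2 per group), a 1.64-fold difference. In limma the log2 difference was 0.71 (SE 0.27, 95% interval 0.11 to 1.31, adjusted p = 0.652), and it was 0.39 without P59 replicate 2. The second set, below the filter, differed by 0.47 with overlapping groups.

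Adam12, an ADAM of mesenchymal cells, read 6.98 and 7.04 at P54 and 8.05 and 7.26 at P59. Here it was P59 replicate 1 that was highest. The means were 7.01 ± 0.04 and 7.65 ± 0.56 (SD, n = 2 per group), a 1.56-fold difference. In limma the log2 difference was 0.64 (SE 0.28, 95% interval 0.01 to 1.27, adjusted p = 0.763). It was 0.25 without P59 replicate 1, and the second set, below the filter, also peaked in that array and differed by 0.96. The inner root sheath, the layer that guides a growing hair, was higher in this array as well: the summed intensity of 7 marker genes was 12098 in P59 replicate 1, against 2151 in P59 replicate 2 and 742 and 391 in P54 replicates 1 and 2. Whether it bears on Adam12 was not tested.

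The other 6 ADAM genes were not called. Adam33, an ADAM of smooth muscle and fibroblasts, read 7.83 and 7.86 at P54 and 8.11 and 8.45 at P59, a difference of 0.44 (limma adjusted p = 0.849) with separate groups. The second Adam33 set, also above the filter, differed by 0.04 with overlapping groups, and by -0.26 without P59 replicate 2. Adam9 differed by 0.38 and Adam8, of myeloid cells, by 0.26, with separate groups for both. Adam17, which sheds tumour necrosis factor and ligands of the epidermal growth factor receptor, differed by 0.13 and Adam10, the main Notch sheddase, by 0.05, each with overlapping groups. Adam15 differed by 0.01, and the name of its set marks probes that may cross-hybridise.

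ADAMTS genes held the largest differences of the 25 tested genes in both directions. Of 12 genes 10 were measured and 6 tested, 4 with a higher and 2 with a lower mean at P59 (median 0.10). Adamts5, an aggrecanase that cuts aggrecan and versican, read 9.09 and 8.79 at P54 and 9.82 and 10.30 at P59. Both P59 arrays lay well above both P54 arrays. The means were 8.94 ± 0.21 and 10.06 ± 0.34 (SD, n = 2 per group), a 2.17-fold difference. In limma the log2 difference was 1.12 (SE 0.25, 95% interval 0.55 to 1.68), with an unadjusted p of 0.00129 and an adjusted p of 0.282. Its other 3 sets differed by 0.82, 0.87 and 0.45 (the last from a set below the filter), each with both P59 arrays above both P54 arrays. Leaving out 1 array at a time, the difference ran from 0.88 to 1.36. It met the unadjusted limits in each of the 9 alternatives run.

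Adamts10, which binds fibrillin microfibrils, was the 1 gene called lower, and this rested on P59 replicate 2. Its log2 intensity was 7.82 and 8.43 at P54, and 7.85 and 6.04 at P59. The P59 replicate 1 value lay between the P54 values, so the groups overlap. The means were 8.12 ± 0.43 and 6.95 ± 1.28 (SD, n = 2 per group), 2.26-fold lower at P59. In limma the log2 difference was -1.18 (SE 0.48, 95% interval -2.24 to -0.12, adjusted p = 0.723), and it was -0.27 without P59 replicate 2. The second set, below the filter, differed by -0.10. The set used is also 1 of the 11 that read low in the array with the wide Gapdh gap, and the part of that gap was not tested.

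Of the other ADAMTS genes none was called. Adamts1, which cuts versican and aggrecan, differed by -0.22 with overlapping groups, Adamts12 by 0.36, Adamts9 by 0.19 and Adamts15 by 0.01. The Adamts9 set used had both P59 arrays above both P54 arrays. Its other 2 sets, below the filter, had the opposite order and differed by -0.71 and -0.41. Below the filter Adamts6, 1 of the 4 genes there, read 4.93 and 5.08 at P54 and 5.27 and 5.71 at P59. Adamts4, the other main aggrecanase, differed by 0.30 with separate groups, while Adamts3, a procollagen processing enzyme, differed by -0.08 and Adamts20 by 0.17 with overlapping groups.

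Of the plasminogen system Plat, tissue plasminogen activator, read 8.35 and 7.65 at P54 and 8.55 and 8.65 at P59. All values but that of P54 replicate 2 lay close together, and the groups did not overlap. The means were 8.0 ± 0.49 and 8.60 ± 0.07 (SD, n = 2 per group), a 1.51-fold difference. In limma the log2 difference was 0.60 (SE 0.27, adjusted p = 0.770), with a 95% interval that reached just below 0, and it was 0.25 without P54 replicate 2. Plat met the unadjusted limits after repeated quantile normalization (0.62) and without P54 replicate 1 (0.94), and the mean of its sets differed by 0.29. Plau, the urokinase that acts at the cell surface, read 3.96 and 4.07 at P54 and 4.45 and 4.55 at P59. These 4 values all lay far below the filter, and the difference of 0.48 had an unadjusted p of 0.0304 and an adjusted p of 0.745 in limma without the filter. Its second set differed by 0.33.

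Of 6 lists of neighbouring pathway genes 5 held genes called at the unadjusted limits, where 3.03% of all genes tested were higher and 2.53% lower. Of other plasminogen genes 0 of 6 tested were called, with a median of -0.05. Of other metalloprotease regulators 0 of 7 were higher and 1 lower, Clec3b (tetranectin), by -0.89. Its groups overlap (8.24 and 9.29 against 8.24 and 7.5), and it differed by -0.37 without P54 replicate 2 and -0.52 without P59 replicate 2. Of other ADAM and ADAMTS-like genes 1 of 6 was higher, Adamtsl1, by 0.73, and of astacin, procollagen and serine matrix proteases 1 of 11 was higher, Dpp4, by 0.70. Without P59 replicate 2 these were 0.39 for Adamtsl1 and 0.41 for Dpp4. Of the cathepsins and cystatin C, lysosomal proteases and their inhibitor, 1 of 13 was higher, Ctss, an enzyme of antigen-presenting cells, by 0.60, and 10 of 13 had a higher mean. Of 14 substrates of these enzymes 2 were higher, Nid1 (nidogen 1, of basement membranes) by 0.77 and Eln (elastin) by 0.70, and 1 was lower, Col17a1 (collagen XVII, of hemidesmosomes), by -0.61. Each of these named genes had an adjusted limma p of 0.514 or higher.

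Most macrophage markers were higher on the same arrays as Mmp12 and Adamts5, while among neutrophil markers the difference lay mainly in S100a8 and S100a9, which stressed keratinocytes also make. Of 9 tested macrophage markers 9 had a higher mean at P59, with a median difference of 0.65, and of 0.42 without P59 replicate 2. For 7 of the 9 both P59 arrays lay above both P54 arrays, an order that 18.9% of all genes tested shared. At the unadjusted limits 5 were higher, where 3.03% of all genes tested were. Mpeg1, a pore-forming protein of macrophages, had the largest difference among those named, 0.96 (limma adjusted p = 0.402), beside Fcgr3 at 0.70 and Cd68 at 0.65. Without P59 replicate 2 Mpeg1 differed by 0.88, Fcgr3 by 0.58 and Cd68 by 0.82. Summed intensity of the 10 measured macrophage markers was 10716 and 9227 at P54 and 11822 and 15625 at P59, so that both P59 arrays were higher, while Itgam was below the filter and Csf1r differed by 0.07. Of 8 measured neutrophil markers 2 were tested, S100a8 and S100a9, at 2.17 and 1.71; S100a8 was past the adjusted threshold in limma (adjusted p = 0.0387, a call lost without the intensity filter) and S100a9 differed by 1.02 without P59 replicate 2. The other 6 lay below the filter: Csf3r differed by 0.38 and Elane by 0.18 with separate groups, and Mpo by 0.30, Ltf by 0.21, Ngp by 0.04 and Camp by -0.15 with overlapping ones. The neutrophil sum, which includes S100a8 and S100a9, was 324 and 377 at P54 and 689 and 967 at P59. The dermal fibroblast markers, whose sum ran from 98248 to 104565 over the 4 arrays, had a median difference of 0.08, with 1 of 9 called (Pdgfra, 0.64, and 0.42 without P59 replicate 2). The part of cell numbers in the protease values was not tested.

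**Figure D4:**
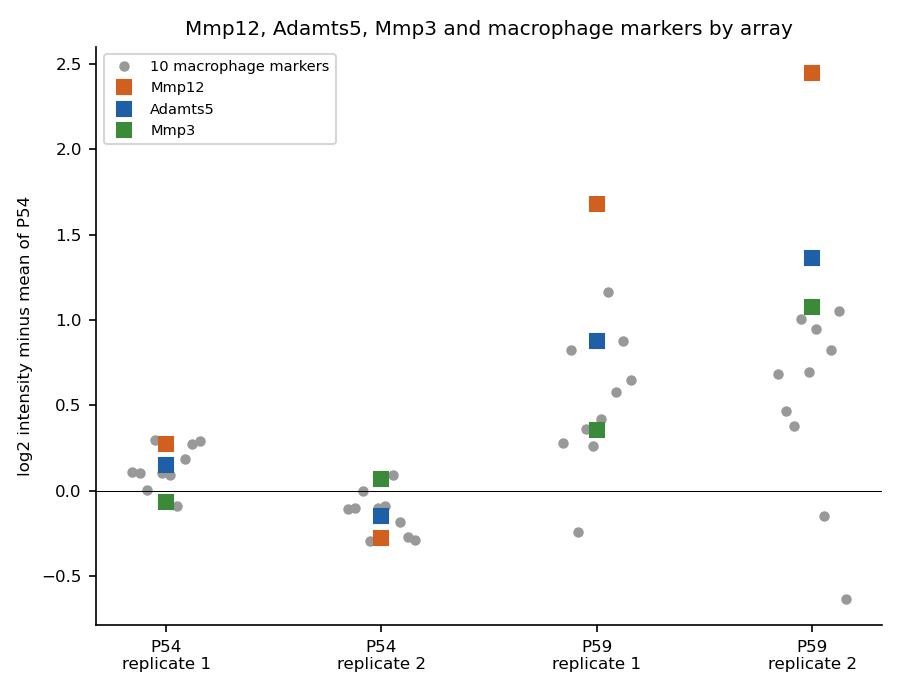
Log2 intensity minus the gene's own P54 mean (vertical axis) on each of the 4 arrays (horizontal axis) for Mmp12, Adamts5 and Mmp3 (squares) and for 10 macrophage markers (grey points, spread sideways for legibility). Mmp12 lies at 1.68 and 2.45 in P59 replicates 1 and 2, above every macrophage marker on those arrays.

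Markers of other cell types of skin were counted in the same way. Basal keratinocyte markers were lower in mean for 7 of 7 genes (median -0.39), and suprabasal ones for 5 of 7 (median -0.15). Of the basal markers 2 were called lower, Itgb4 and Col17a1, and of the suprabasal ones 0, where 2.53% of all genes tested were. Itgb4 differed by -0.87, and by -0.34 without P59 replicate 2, and Col17a1 by -0.61 and -0.59. Among adipocyte markers 1 of 6 was called lower (Cidec, -0.80), and among endothelial ones 1 of 6 (Tie1, -0.68). Without P59 replicate 2 these were -0.42 and -0.29. Of 7 skeletal muscle and 5 mast cell markers 0 were called. Inner root sheath markers were higher in mean for 6 of 6 genes (median 3.73), with 5 called, where 3.03% of all genes tested were called higher. The sum of their intensities was the highest in P59 replicate 1 by a wide margin.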

How the data were processed

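Gene expression was measured on 4 Affymetrix arrays of mouse dorsal skin, 2 at P54 and 2 at P59. The authors deposited 1 table of intensity values for 45101 probe sets on a linear scale; per the submitters' processing notes, RMA and Affymetrix Expression Console were used, with versions not given in the sources used here. Intensities were log2-transformed as they stood, with no pseudocount. Probe sets with 1 gene symbol in GEO's platform annotation (34945; 932 had several and 9211 were unlisted) were used, the set of highest mean standing for its gene, and the test kept genes whose mean exceeded the 40th percentile over genes. Levels are not compared between probe sets, and the number of arrays limits the precision. The comparison of P59 and P54 used limma 3.58.1 in R 4.3.3, adjusted by Benjamini-Hochberg over 10916 genes, with 2 residual and 8.18 prior degrees of freedom. No exact permutation test of 2 against 2 arrays can go below p = 0.333. The code was tested on simulated data. Promoter windows and the gene order are from RefSeq, GRCm38.p6; no genome build is named for the array values.

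All genes of the set are named. Full values are given for those at least 1.5-fold apart with separate groups and for those at an unadjusted p under 0.05. They are also given for those whose replicates differ at least 4-fold (none did) and for the TIMPs. Values of Mmp2, Mmp8, Mmp9, Mmp11, Mmp13, Mmp14, Adam33 and Adamts6 are printed as well, outside these rules. Of each other list at most 3 genes are named, those with the smallest p. Exceptions are the macrophage genes Itgam and Csf1r, the neutrophil genes, Krt14 and Col1a1, chosen after their values were seen. Genes and lists were chosen with earlier results of these data known. The alternatives were no filter, the mean of all probe sets, repeated quantile normalization, an intensity trend in eBayes, the replicate number as a block, and each array left out.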

Additional observations from a re-analysis of the deposited data

How the results depend on the processing

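With 2 arrays per group, single arrays decide many counts. Past the adjusted threshold there were 2 of all genes tested, and 0 without the intensity filter, with the mean of all probe sets or after repeated quantile normalization (limma; 1122 genes had an unadjusted p under 0.05 without the filter, and 708 with it). Leaving out 1 array at a time gave 29 to 402. At the unadjusted limits the 331 higher genes became 497 without the filter and 104 to 832 with an array left out, and the 276 lower genes 169 to 875. Among the protease genes 0 to 3 then passed the adjusted threshold (3 without P59 replicate 1: Mmp3, Adamts5 and Adamts10), 1 to 5 were higher and 0 to 1 lower, and the median difference was 0.20 to 0.31 (0.11 with the mean of all probe sets). The lower count was 0 without the filter, with the mean of sets and after quantile normalization, 3 settings in which Adamts10 was not called. Its difference was then -1.18, -0.64 and -1.13, with an unadjusted limma p of 0.0712, 0.0631 and 0.0711. Quantile normalization brought the higher count to 7, with Mmp11 and Plat added. The cause was not tested.

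With the mean of all probe sets the differences of Mmp9 (-0.38), Timp2 (-0.64), Adam10 (-0.21), Adam15 (-0.28), Adam17 (-0.19) and Adamts9 (-0.31) turned negative. With an array left out the sign turned at least once for Mmp9 (-0.21 to 0.26), Timp1 (-0.24 to 0.44), Timp3 (-0.22 to 0.047), Timp4 (-0.057 to 0.40), Adam10 (-0.11 to 0.21), Adam15 (-0.047 to 0.074), Adam17 (-0.16 to 0.41), Adamts1 (-0.57 to 0.13) and Adamts15 (-0.32 to 0.34). None of these genes was called.

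The replicate block gave 156 genes past the adjusted threshold and 2 protease genes, Adamts5 and Adamts10. Arrays share only a replicate number: deviations of same-numbered arrays correlated at -0.037 over 10916 genes. The Mmp12 values with an array left out were chosen after seeing the data.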
